A study of Mus musculus with 4 samples.

Results

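The mitosis genes described here are 50 genes whose products drive entry into mitosis, the spindle, chromosome condensation, the kinetochore and the separation of sister chromatids. They were listed by symbol, and all 50 were matched to an Ensembl identifier in both count tables, which hold 46078 genes, of which 22289 had a count in a kept cell. The values come from wild-type mouse embryonic stem (ES) cells grown in 2i, in which MEK and GSK3 are inhibited and ES cells stay naive. Per the paper, its naive medium also held leukemia inhibitory factor (LIF). A flow cytometry gate on scatter took small cells, and other cells were sorted ungated. Both were then kept for 6 h on laminin in 2i or in N2B27. The latter is the medium without the inhibitors and LIF, in which ES cells leave the naive state. The gate was meant to take cells that had just left mitosis or were in G1, so the comparison of gates asks how mitotic transcripts stand in cells that were early in the cycle 6 h before. The 4 groups, small and ungated cells in 2i and then small and ungated cells in N2B27, are 1 sample of 24 single cells each.

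With 1 sample a group there are no replicates, cells of a sample share their source, and no p-value is given. The kept cells numbered 12, 22, 20 and 21 in the order above, after cells with few counts, few genes or many mitochondrial counts had been left out, and held between 1364155 and 4844170 counts on genes. Of the 24 small cells in 2i, 9 held more reads of the ERCC spike-ins, the synthetic RNAs added to each cell, than of genes. The spike-in share of kept cells had a median of 3.47% in small and 1.28% in ungated cells in 2i, and of 2.45% and 1.14% in N2B27. Small cells also had fewer genes detected, with medians of 7603 against 9515.5 in 2i and 7462.5 against 8200 in N2B27. In 2i, 1 small cell with 40.9% spike-in counts and 4612 genes and 1 with 0.0673% and 15712 genes stood apart, and the values that rest on them are given with and without them. All 8 ES cell markers examined, among them Pou5f1 and Nanog, reached a mean normalized count of 20 in each group, and no marker of fibroblasts, primitive endoderm or 2-cell-like cells did. Of 6 trophoblast markers, 2, 2, 1 and 3 did in the order above. Each medium is a plate and a sequencing lane of its own, so the media cannot be told apart from these. Within a plate, small and ungated cells carried different sequencing indexes, the tags of each cell's library. The gates therefore cannot be told apart from the index positions.

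Mitosis begins when CDK1 with cyclin B becomes active, with the help of CDC25 phosphatases and the kinases PLK1 and AURKA, and it ends when the anaphase-promoting complex (APC/C), with its activators CDC20 and later FZR1, marks securin and cyclin B for destruction. The transcripts of many of these genes are held low in G1 by the DREAM complex and rise in G2 through the MuvB core with B-MYB and FOXM1. MuvB contacts a short promoter element, the CHR, often with CCAAT boxes nearby that bind NF-Y. Mouse ES cells are known for a short G1 phase.

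The promoters of 4 members are shown because these genes stood at different places in the comparison of gates given further on. They are RefSeq windows of the GRCm38.p6 build, from 250 bases before to 50 after the start, and the capitals mark the CHR letters TTTGAA on either strand. Plk1 (chr7:122159185-122159484, + strand) and Cdc20 (chr4:118437294-118437593, - strand) had lower means in small cells in both media. Cdk1 (chr10:69352863-69353162, - strand) had a lower mean in small cells, by a larger ratio in 2i, and Smc2 (chr4:52438971-52439270, + strand) had higher means in small cells.
Plk1: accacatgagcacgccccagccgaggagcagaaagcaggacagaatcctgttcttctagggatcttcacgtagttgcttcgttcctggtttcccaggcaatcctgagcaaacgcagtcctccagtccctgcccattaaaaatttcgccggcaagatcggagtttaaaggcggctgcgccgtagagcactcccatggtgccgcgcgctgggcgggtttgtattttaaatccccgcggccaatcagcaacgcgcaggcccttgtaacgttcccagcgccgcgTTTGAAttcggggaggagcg
Cdc20: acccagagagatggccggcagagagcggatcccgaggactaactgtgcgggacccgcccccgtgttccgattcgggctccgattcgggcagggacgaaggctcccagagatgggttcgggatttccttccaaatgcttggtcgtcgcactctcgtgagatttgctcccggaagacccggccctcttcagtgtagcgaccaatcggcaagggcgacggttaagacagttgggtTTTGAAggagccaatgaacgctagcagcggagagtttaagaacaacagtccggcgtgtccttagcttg
Cdk1: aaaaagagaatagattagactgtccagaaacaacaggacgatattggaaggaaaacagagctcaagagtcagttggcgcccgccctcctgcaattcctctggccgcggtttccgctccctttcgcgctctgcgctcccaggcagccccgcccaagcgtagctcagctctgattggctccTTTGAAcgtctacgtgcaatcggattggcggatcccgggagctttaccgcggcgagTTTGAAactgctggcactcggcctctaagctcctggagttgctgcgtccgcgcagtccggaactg
Smc2: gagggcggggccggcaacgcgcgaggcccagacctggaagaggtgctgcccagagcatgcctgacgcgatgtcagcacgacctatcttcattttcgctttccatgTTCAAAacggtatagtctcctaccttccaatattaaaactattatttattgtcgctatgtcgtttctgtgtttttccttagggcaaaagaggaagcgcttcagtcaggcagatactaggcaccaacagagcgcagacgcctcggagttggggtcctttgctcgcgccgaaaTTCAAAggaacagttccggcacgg

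The CHR letters were present in all 4, including Smc2. Of the 50 members, 41 had an entry in the RefSeq table, with 42 promoters. Between 100 bases before and 50 after the start, TTTGAA was found in 23 of 42 member promoters (54.8%), against 8.01% of all promoters and 4.98% of those of genes reaching a mean normalized count of 20. The variant TTCGAA was found in 2 of 42 (4.76%), against 0.61% of all promoters and 0.93% of those of genes reaching that mean. The CCAAT letters were found in 26 of 42 (61.9%), against 23.4% and 26.8%. The window near the start was chosen after values had been seen.

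Per cell, the 50 genes took a smaller share of the counts in small cells. In 2i the lowest, median and highest share was 0.211%, 0.458% and 0.818% in small cells and 0.331%, 0.693% and 1.57% in ungated cells. In N2B27 it was 0.261%, 0.615% and 1.28% against 0.354%, 0.791% and 1.65%. The ranges overlapped in both media, with 11 of 12 and 16 of 20 small cells below the ungated median and 4 and 4 below the lowest ungated cell. The ratio of medians was 0.661 in 2i and 0.777 in N2B27. Over the 9 members outside the marker genes of cyclone, the phase classifier used below, it was 0.658 in 2i and 0.972 in N2B27, and with no cells left out it was 0.697 and 0.887.

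**Figure D1:**
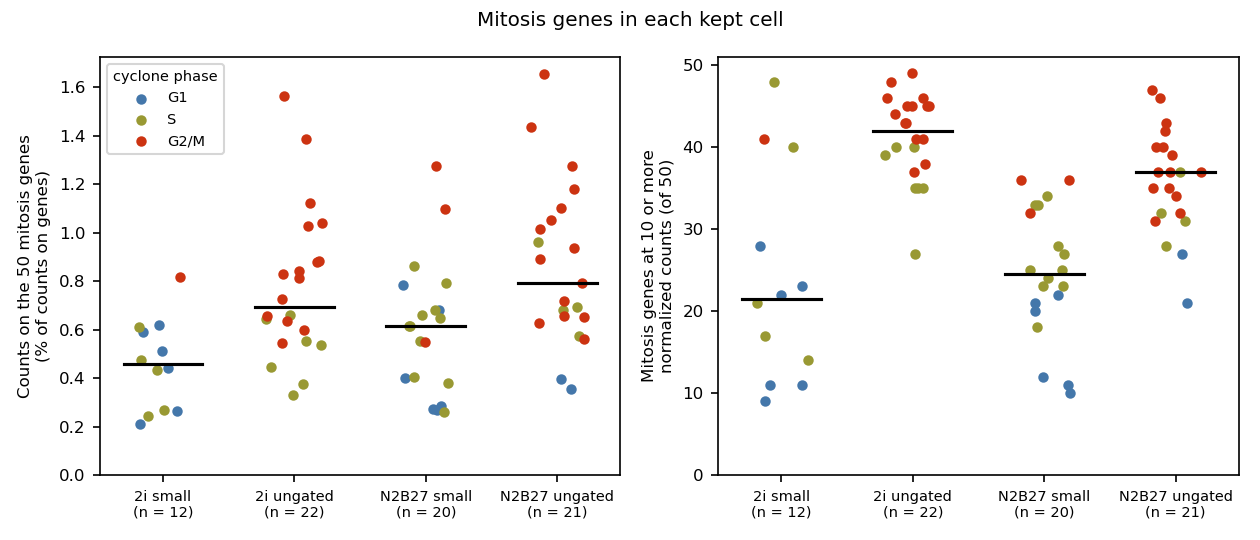
Share of counts on the 50 mitosis genes (left, % of counts on genes) and number of them at 10 or more normalized counts (right) in each kept cell, by group and coloured by cyclone phase, with bars at the group medians. The medians at right were 21.5, 42, 24.5 and 37 genes, lower in small than in ungated cells in both media.

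Fewer of the genes were expressed in a small cell. Counting a gene as expressed at 10 or more normalized counts, a limit chosen with values known, a 2i small cell expressed between 9 and 48 of the 50 genes (median 21.5) and a 2i ungated cell between 27 and 49 (median 42). The figures in N2B27 were 10 to 36 (median 24.5) and 21 to 47 (median 37), and all 20 small cells lay below the ungated median. Of the members whose mean normalized count reached 20, 49 of 49 in 2i and 46 of 49 in N2B27 were expressed in a smaller share of small than of ungated cells, against 83.7% and 76.1% of all genes with that mean. The median difference was -34.8 percentage points for members and -21.2 for all genes in 2i, and -20.2 and -12.6 in N2B27. After each cell had been thinned to 1364155 counts these values were -37.1 and -22.7, and -21.4 and -12.1. In the cells that did express them, the median log2 ratio of mean levels was -0.30 in 2i and -0.024 in N2B27. For all genes it was 0.19 and 0.32, so members lay below all genes in both media. The number of members expressed went down with the spike-in share across cells. Spearman's correlation was -0.95, -0.67, -0.76 and -0.28 in small and ungated cells of 2i and small and ungated cells of N2B27. Both measures depend on the counts on genes of the same cell. For the share of counts on the members, the correlation with the spike-in share was -0.33, -0.37, -0.095 and -0.068. The part of RNA content in these counts was not tested.

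**Figure D2:**
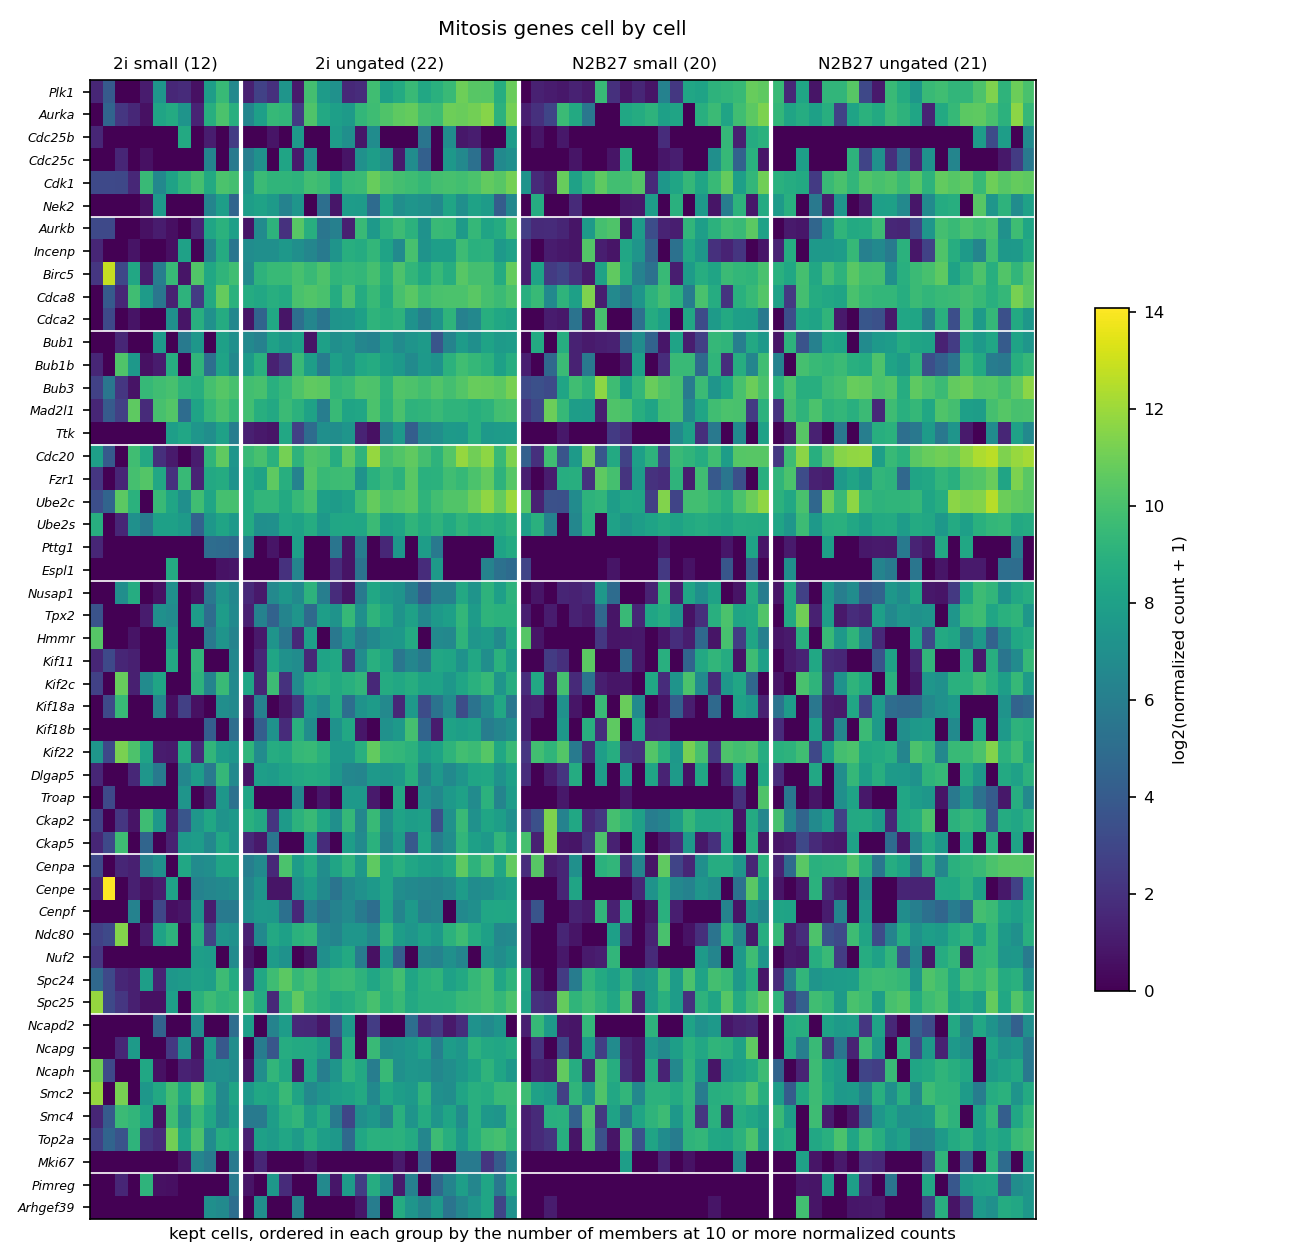
log2(normalized count + 1) of the 50 mitosis genes (rows, in blocks by role) in the 75 kept cells (columns, by group, ordered by the number of members at 10 or more normalized counts). Cdc25b, Pttg1, Espl1 and Mki67 were under 10 normalized counts in most cells of every group, and Pimreg had no count in the 20 N2B27 small cells.

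The size of each difference is given as the log2 ratio of mean normalized counts, small over ungated, with 1 added to both means, for genes with a mean of at least 20 over the cells compared. A gene is said to have fallen or risen at a log2 ratio of -1 or below, or 1 or above. In 2i, 29 of 49 members fell, where 27.7% of all 8627 genes did, and 2 rose, where 16.4% did. In N2B27, 15 of 49 fell, where 16.5% of all 8706 genes did, and 3 rose, where 12.7% did. The median log2 ratio of members was -1.09 in 2i (all genes -0.36) and -0.52 in N2B27 (all genes -0.11). Plk1, Nek2, Incenp, Cdc20, Fzr1, Pttg1, Cenpa, Nuf2 and Arhgef39 were the 9 that fell in both media. The share of all genes that fell in both was not counted, so these 9 are given as a list only. Without both small cells of 2i that stood apart, 25 members fell and 1 rose in 2i, where 25.8% and 13.2% of all genes did. Without the cell with 40.9% spike-in counts alone, 7 members no longer passed the threshold, Fzr1 (-0.996), Nusap1 (-0.98), Kif11 (-0.97), Cdca2 (-0.94), Nuf2 (-0.93), Bub3 (-0.89) and Ckap2 (-0.88), while Birc5 (-1.04) and Cenpe (-1.15) fell. As differences of means of log2 values, 46 members in 2i and 37 in N2B27 were at -1 or below, where 61.4% and 42.6% of all genes were.

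These counts also moved with the scaling of the cells. With DESeq2's poscounts size factors 16 members fell and 8 rose in 2i, and 7 fell and 6 rose in N2B27, where 14.1% and 35.8% of all genes did in 2i and 9.85% and 26.2% in N2B27. With size factors from the spike-ins, 5 fell and 8 rose in 2i, and 32 fell and 0 rose in N2B27, where 6.20% and 39.5% of all genes did in 2i and 41.5% and 5.41% in N2B27. The median of all genes moved to 0.44 and 0.78 in 2i and to 0.37 and -0.84 in N2B27 under these scalings. Relative to that median, members lay at -0.72 in 2i and -0.42 in N2B27 on the main scale, at -0.94 and -0.34 with poscounts factors and at -0.55 and -0.47 with spike-in factors. That relative position kept its sign under these scalings, whereas 17 of the 31 members past the threshold in 2i turned sign with spike-in factors.

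Cell by cell, the share of pairs of 1 small and 1 ungated cell in which the small cell was lower had a median over members of 74.4% in 2i (all genes 62.5%) and 64.3% in N2B27 (all genes 56.0%). It reached 75% for 24 of 49 members in 2i (49.0%, all genes 16.3%) and for 7 of 49 in N2B27 (14.3%, all genes 3.94%). Smc2 and Smc4 were the members under 50% in both media. Members with and without either form of the CHR between 100 bases before and 50 after the start were set side by side. Of those without it there, Ncapd2, Ckap2, Kif2c and Ube2s hold a form further upstream. In 2i, 13 of 24 with and 10 of 16 without it fell, with median log2 ratios of -1.05 and -1.08 and median shares of pairs of 75.7% and 71.8%, and in N2B27 6 of 24 and 6 of 16 fell, with medians of -0.53 and -0.78 and pair shares of 65.6% and 65.8%. This split was chosen after values had been seen.

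**Figure D3:**
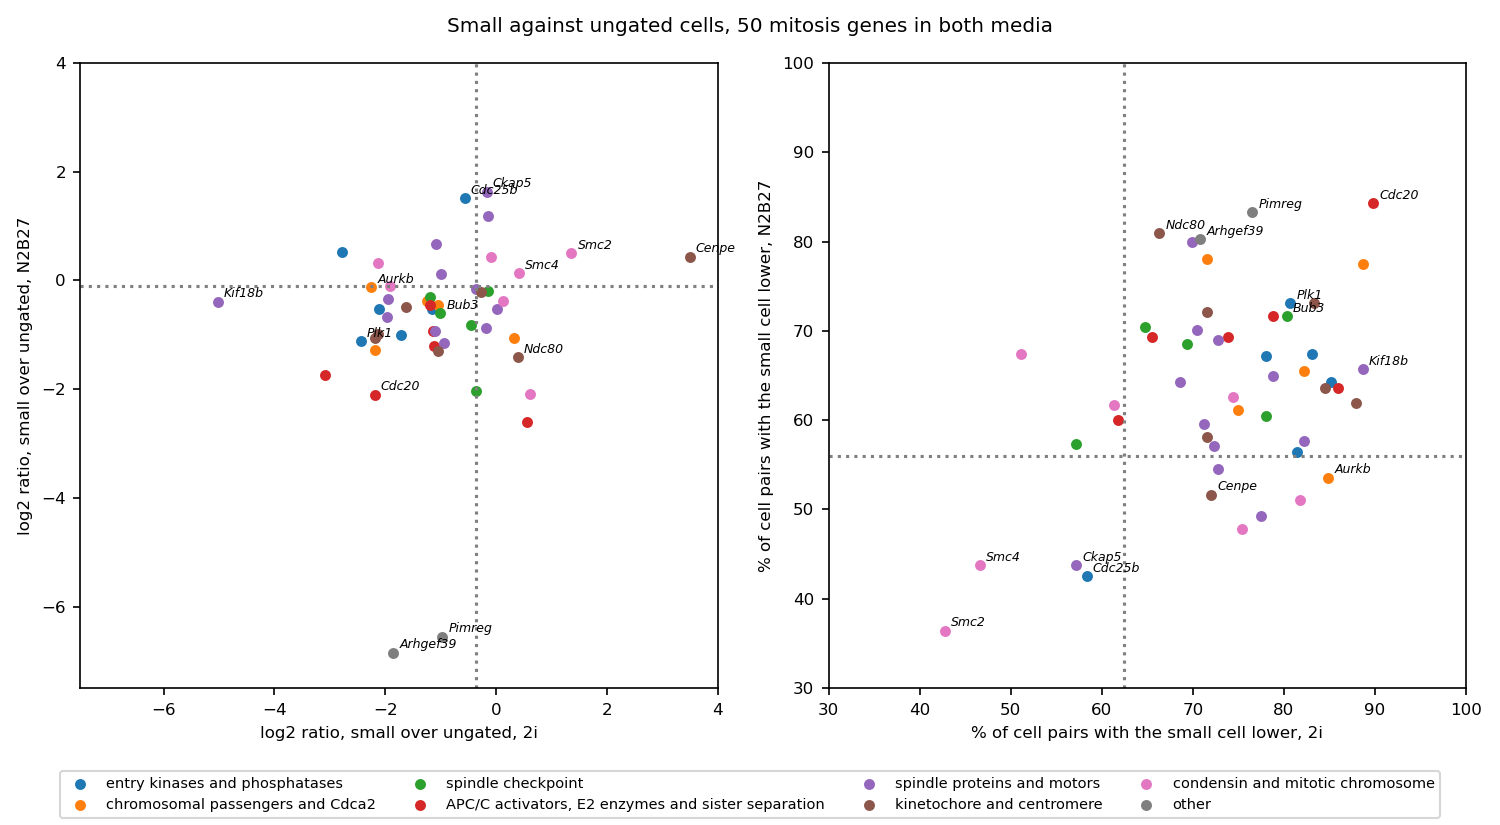
Each of the 50 mitosis genes in 2i (x axis) and N2B27 (y axis), as the log2 ratio of means, small over ungated (left), and as the percent of cell pairs with the small cell lower (right), coloured by role, with dotted lines at the median of all genes. Cdc20 had the highest share of pairs of the members in both media, 89.8% and 84.3%, and Smc2 the lowest, 42.8% and 36.4%.

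Of the 6 kinases and phosphatases of mitotic entry, 5 fell in 2i (all genes 27.7%), and 2 fell and 1 rose in N2B27 (all genes 16.5% and 12.7%). Plk1, the kinase that acts from mitotic entry to cytokinesis, had a lowest, median and highest normalized count of 0, 2.13 and 707 in small cells and 1.05, 369.6 and 1972.5 in ungated cells in 2i. In N2B27 these were 0, 3.32 and 1767 in small cells and 0.724, 612 and 2589 in ungated cells. Most small cells of both media held fewer than 10, while some reached the levels of ungated cells. Its log2 ratios were -2.44 in 2i and -1.12 in N2B27, with 5 of 12 and 9 of 20 small cells expressing it against 16 of 22 and 17 of 21 ungated cells. Its summed reads were 1867 counts (95% Poisson interval 1783 to 1954) and 13052 counts (95% Poisson interval 12829 to 13278) in 2i small and ungated cells. Among cells assigned to S phase in 2i its log2 ratio was 0.40.

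Aurka, the kinase of the spindle poles, held 0, 88.3 and 1093 in small cells and 4.19, 831 and 2874 in ungated cells in 2i and 0, 314 and 2491 in small cells and 1.68, 498 and 3196 in ungated cells in N2B27. Cdk1, the kinase that starts mitosis, held 2.00, 320.4 and 1107 in small cells and 167, 859 and 2269.6 in ungated cells in 2i and 1.13, 649.8 and 2049 in small cells and 4.34, 1066 and 2004 in ungated cells in N2B27. The ranges overlapped in both media, while in 2i 5 of 12 small cells lay below the lowest ungated cell for each gene. The small cell was lower in 85.2% (Aurka) and 78.0% (Cdk1) of pairs in 2i, and in 64.3% and 67.1% in N2B27. Both genes passed the threshold in 2i only (log2 ratios -2.11 and -1.16, against -0.53 and -0.53 in N2B27). With spike-in factors the sign of Cdk1 in 2i turned (0.95). The difference between media was not tested. Nek2, a centrosome kinase, fell in both (-1.72 and -1.005; 0.86 among N2B27 cells in S).

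The CDC25 phosphatases, which activate CDK1, were sparse. Cdc25c held 0, 0 and 79.2 in small cells and 0, 81.3 and 296.5 in ungated cells in 2i, a log2 ratio of -2.79 that turned to 0.39 with spike-in factors, and 0, 0.353 and 678 in small cells and 0, 1.64 and 552 in ungated cells in N2B27, where the ratio was 0.53. Of its exonic bases, 12.7% overlap another gene. Cdc25b held 0, 0 and 370 in small cells and 0, 0.354 and 219.7 in ungated cells in 2i and 0, 0 and 659 in small cells and 0, 0 and 227 in ungated cells in N2B27. It rose in N2B27 (1.52), but was expressed in 3 of 20 small and 3 of 21 ungated cells there, and 1 small cell held 41.97% of the small cells' counts.

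The chromosomal passenger complex corrects the attachment of chromosomes to the spindle, and its subunits Aurkb, Incenp, Birc5 and Cdca8 were listed with Cdca2, a phosphatase partner on chromatin. In 2i, 4 of these 5 fell (all genes 27.7%), and in N2B27 2 did (all genes 16.5%). Aurkb, its kinase, held 0, 1.36 and 503 in small cells and 0.69, 423 and 1377 in ungated cells in 2i, where 5 of 12 small cells lay below the lowest ungated cell. In N2B27 it held 0.751, 212 and 1479.5 in small cells and 0, 312 and 1090.5 in ungated cells, and the ranges overlapped. The log2 ratios were -2.26 and -0.13, and the former turned to 0.24 with spike-in factors, 0.62 with no cells left out and 0.023 among cells in S. Incenp, the scaffold, fell in both media (-2.18 and -1.28), and 9 of 12 small cells in 2i lay below the lowest ungated cell. Cdca8 (-1.25) and Cdca2 (-1.06) fell in 2i and turned sign with spike-in factors. Birc5, or survivin, fell in N2B27 (-1.06), where 8 of 20 small cells lay below every ungated cell. In 2i its log2 ratio was 0.31 with the cell of 40.9% spike-in counts, which held 64.3% of the small cells' counts, and it fell without that cell (-1.04; -1.24 without both cells that stood apart).

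Among the 5 genes of the spindle checkpoint, which delays anaphase until chromosomes are attached, 2 fell in 2i (all genes 27.7%) and 1 in N2B27 (all genes 16.5%). Bub1, a checkpoint kinase, held 0, 0.91 and 258 in small cells and 0.663, 157 and 285.5 in ungated cells in 2i and 0, 23.2 and 666 in small cells and 0, 187.5 and 555 in ungated cells in N2B27. The groups overlapped, with log2 ratios of -1.19 and -0.31. Bub3, its partner, was expressed in every ungated cell and was at the threshold in 2i (-1.01; -0.60 in N2B27). Both turned sign in 2i with spike-in factors (0.83 and 0.91). Ttk, also called MPS1, fell in N2B27 (-2.04), where 5 of 20 small and 13 of 21 ungated cells expressed it, and had a ratio of -0.36 in 2i. Mad2l1, which encodes MAD2, stood near 0 in both media (-0.16 and -0.20), and Bub1b, which encodes BUBR1, had ratios of -0.45 and -0.82.

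Of the 6 genes that activate the APC/C, carry its ubiquitin or hold and cut sister chromatids, 5 fell in 2i (all genes 27.7%) and 3 of 5 tested fell in N2B27 (all genes 16.5%). Cdc20, the APC/C activator of metaphase, held 0, 87.2 and 1605 in small cells and 422, 1109.7 and 3696 in ungated cells in 2i and 2.85, 396 and 1943 in small cells and 3.85, 2049 and 6273 in ungated cells in N2B27. In 2i, 9 of 12 small cells lay below the lowest ungated cell, and in N2B27 20 of 20 lay below the ungated median. Its log2 ratios were -2.19 and -2.10, and -1.43 and -2.15 among cells assigned to S. In N2B27 it was expressed in 17 of 20 small and 20 of 21 ungated cells, and the log2 ratio of its mean level in the cells expressing it was -1.94.

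Fzr1, or CDH1, which activates the APC/C from late mitosis into G1, also fell in both media (-1.12 and -1.22), although among N2B27 cells in S its ratio was 1.82. Ube2c, the enzyme that starts ubiquitin chains for the APC/C, held 0, 404 and 1483.5 in small cells and 214, 940 and 3969 in ungated cells in 2i and 1.43, 507 and 3462 in small cells and 24.6, 749 and 6046.5 in ungated cells in N2B27. It fell in 2i (-1.15; 0.65 with spike-in factors and 0.39 among cells in S) and was just outside the threshold in N2B27 (-0.93), and 22.8% of its exonic bases overlap Tnnc2 on the opposite strand. Ube2s, which extends the chains, fell in 2i (-1.19; 0.13 with spike-in factors).

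Pttg1, or securin, the inhibitor of separase, held 0, 0 and 31.9 in small cells and 0, 0.694 and 382 in ungated cells in 2i and 0, 0 and 283 in small cells and 0, 0.841 and 359 in ungated cells in N2B27. It fell in both (-3.09 and -1.75), yet it was expressed in only 9 of 22 and 5 of 21 ungated cells. Espl1, or separase itself, held 0, 0 and 383 in small cells and 0, 0 and 200.4 in ungated cells in 2i, where 1 small cell had 99.6% of the counts and the log2 ratio was 0.55, and 0, 0 and 17.9 in small cells and 0, 0 and 128 in ungated cells in N2B27, where its mean was under 20.

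**Figure D4:**
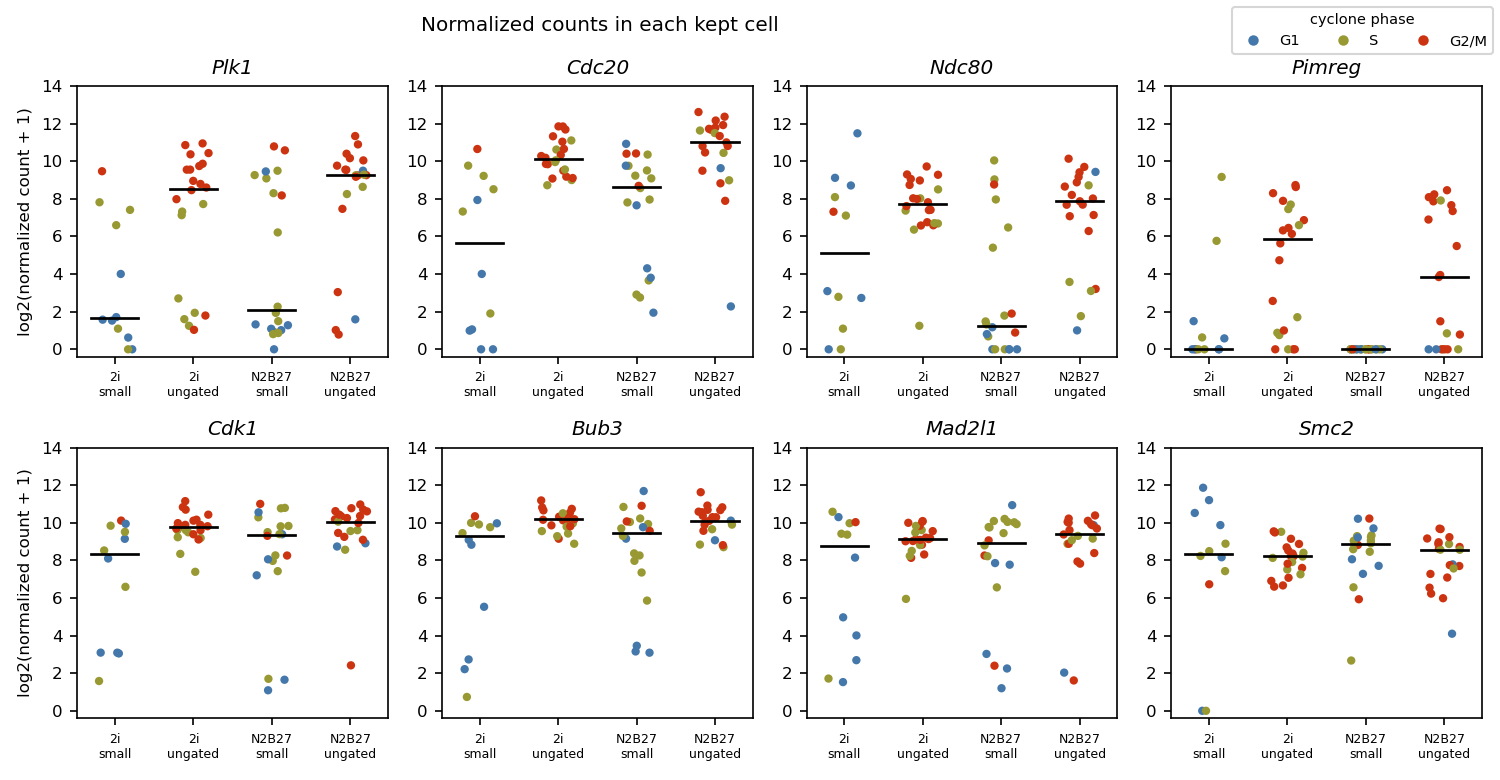
log2(normalized count + 1) of 8 members in each kept cell, by group and coloured by cyclone phase, with bars at the medians of the log2 values. Plk1 and Ndc80 split into cells above and below 10 normalized counts, Cdc20 was lower in most small cells, and Smc2 overlapped widely between gates.

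Of the 12 spindle proteins and motors, 6 fell in 2i (all genes 27.7%), and in N2B27 1 fell and 2 rose (all genes 16.5% and 12.7%). Kif18b, a kinesin at microtubule plus ends, had the lowest ratio of all members in 2i (-5.03), holding 0, 0 and 31.5 in small cells and 0, 122.5 and 955 in ungated cells. In N2B27 it held 0, 0 and 1540.4 in small cells and 0, 104 and 769.9 in ungated cells, a ratio of -0.39, with 61.97% of the small cells' counts in 1 cell, and was expressed in 4 of 20 small and 12 of 21 ungated cells. Tpx2, the activator of Aurora A, held 0, 21.0 and 215 in small cells and 1.38, 201 and 682 in ungated cells in 2i and 0, 14.3 and 1223 in small cells and 0, 169 and 2051 in ungated cells in N2B27. It fell in 2i (-1.94; -0.34 in N2B27), with the ranges overlapping.

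Nusap1, which bundles spindle microtubules, held 0, 24.5 and 413 in small cells and 0.679, 101 and 557 in ungated cells in 2i and 0, 1.65 and 583 in small cells and 0, 114 and 800.5 in ungated cells in N2B27. It fell in 2i (-1.10) but turned to 0.21 with poscounts factors, 0.063 with spike-in factors and 1.16 among cells in S; in N2B27 its ratio was -0.94. Kif11, the motor that pushes spindle poles apart, held 0, 1.58 and 623 in small cells and 0, 139.6 and 504 in ungated cells in 2i and 0, 3.61 and 1486 in small cells and 0, 1.90 and 698.5 in ungated cells in N2B27, with ratios of -1.09 (9.04e-05 with spike-in factors) and 0.67. Troap (-1.96) and Ckap2 (-1.0, at the threshold) fell in 2i, and Dlgap5 fell in N2B27 (-1.16) and was just outside the threshold in 2i (-0.94). In N2B27 the ratio of Troap was -0.68, with 99.6% of the small cells' counts in 1 cell. With the highest cell of each group left out it was -5.97. There 1 of 20 small and 12 of 21 ungated cells expressed Troap, and the small cell was lower in 80% of pairs.

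Kif18a, a kinesin that limits chromosome oscillation, held 0, 2.92 and 724.5 in small cells and 0, 60.7 and 359 in ungated cells in 2i and 0, 1.34 and 1887 in small cells and 0, 28.6 and 322 in ungated cells in N2B27. It rose in N2B27 (1.18) with 56.02% of the small cells' counts in 1 cell, and its mean of log2 values was lower in small cells (-1.12). Ckap5, a microtubule polymerase, held 0, 58.97 and 819 in small cells and 0, 112 and 606 in ungated cells in 2i and 0, 1.98 and 2596 in small cells and 0, 1.10 and 444 in ungated cells in N2B27, where it rose (1.63; -0.040 with spike-in factors). Hmmr (0.011 and -0.52), Kif2c (-0.18 and -0.88) and Kif22 (-0.37 and -0.16) passed the threshold in neither medium.

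Among 7 genes of the centromere and kinetochore, 4 fell and 1 rose in 2i (all genes 27.7% and 16.4%), and 3 fell in N2B27 (all genes 16.5%). Cenpe, a kinetochore motor, held 0, 38.5 and 17223 in small cells and 0.709, 117 and 322 in ungated cells in 2i. Its mean rose by 3.49 on the log2 scale through a single small cell, the one with 40.9% spike-in counts, which held 96.4% of the counts, and without that cell the ratio was -1.15. In N2B27 it held 0, 20.3 and 1398 in small cells and 0, 1.68 and 543 in ungated cells, a ratio of 0.44. Cenpf, a large protein of the outer kinetochore, held 0, 0.97 and 153 in small cells and 0, 93.7 and 332 in ungated cells in 2i and 0, 1.26 and 607 in small cells and 0, 67.1 and 933 in ungated cells in N2B27. It fell in 2i (-2.13) and was just outside the threshold in N2B27 (-0.98).

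The 4 subunits of the NDC80 complex, which binds microtubules, stood on both sides of the threshold. Nuf2 fell in both media (-1.06 and -1.31), Spc24 fell in 2i (-1.63), both turning sign in 2i with spike-in factors (1.24 and 0.51), and Spc25 passed the threshold in neither (-0.27 and -0.21). Ndc80 fell in N2B27 (-1.42; 0.69 among cells in S), where 6 of 20 small and 17 of 21 ungated cells expressed it, and the mean in those cells was 398 and 397. In 2i its ratio was 0.39, with 64.7% of the small cells' counts in 1 cell, and -0.84 with the highest cell of each group left out. Cenpa, the histone of the centromere, fell in both media (-2.19, 0.28 with spike-in factors, and -1.05).

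Condensin and the other proteins of mitotic chromosomes had median log2 ratios near 0, 0.015 in 2i and 0.14 in N2B27. In 2i 2 of 6 tested fell and 1 rose, and in N2B27 1 of 7 fell, near the shares of all genes (27.7%, 16.4% and 16.5%). Smc2, a core ATPase of condensin, held 0, 329 and 3717 in small cells and 96.1, 295 and 744 in ungated cells in 2i and 5.38, 464 and 1193.5 in small cells and 16.1, 377 and 822 in ungated cells in N2B27. Nearly all cells expressed it and the groups overlapped, with the small cell lower in 42.8% and 36.4% of pairs. It rose in 2i (1.35; 0.50 in N2B27), but its mean of log2 values there was lower in small cells (-0.51). Smc4, the partner ATPase, held 0.548, 256 and 842 in small cells and 6.79, 178 and 653 in ungated cells in 2i and 1.25, 285 and 1098 in small cells and 0, 176 and 846 in ungated cells in N2B27, with ratios of 0.41 and 0.14.

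Of the subunits found in condensin I, Ncapd2 (-1.91) and Ncapg (-2.12) fell in 2i and turned sign with spike-in factors (0.30 and 0.030), and Ncaph did not pass the threshold (-0.091). In N2B27 the 3 had ratios of -0.10, 0.32 and 0.43. Of the exonic bases of Ncapd2 and Ncapg, 7.53% and 13.4% overlap other genes. Top2a, the topoisomerase that untangles sister chromatids, held 2.19, 194 and 2129 in small cells and 1.38, 357 and 956 in ungated cells in 2i and 0.706, 239 and 1106 in small cells and 0, 360 and 1072 in ungated cells in N2B27, with ratios of 0.12 and -0.37. Mki67, which coats mitotic chromosomes, held 0, 0 and 88.2 in small cells and 0, 0 and 86.1 in ungated cells in 2i, where its mean was under 20. In N2B27 it held 0, 0 and 236 in small cells and 0, 0.724 and 589 in ungated cells and fell (-2.10), though 6 of 21 ungated cells expressed it.

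Pimreg and Arhgef39 had the lowest ratios in N2B27. Pimreg, a regulator of the metaphase to anaphase transition, had 0 counts in the 20 small cells and 2190 in the 21 ungated cells, where it held 0, 13.3 and 351, so that it was at least 734.5-fold lower against a floor of 3 counts over the group. In 2i it held 0, 0 and 573 in small cells and 0, 58.99 and 424 in ungated cells, a ratio of -0.97. Arhgef39, a guanine nucleotide exchange factor, had 2 counts in the small cells of N2B27 and 3078 in the ungated ones, a log2 ratio of counts per size factor of -10.56 (counting interval -13.61 to -8.71). It held 0, 0.904 and 889 in the ungated cells and was expressed in 7 of 21 of them. In 2i it held 0, 0 and 129 in small cells and 0, 52.2 and 402 in ungated cells and fell (-1.86; 0.84 among cells in S). Intervals and floors cover counting error only, since reads without molecular identifiers are not independent molecules.

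Phases assigned by cyclone, which compares pairs of genes within a cell, were G1, S and G2/M in 6, 5 and 1 small and 0, 7 and 15 ungated cells in 2i, and in 6, 11 and 3 small and 2, 4 and 15 ungated cells in N2B27. With 5 other random seeds 3 of the 75 cells changed phase. Gene scores of Seurat, the alternative classifier, gave 5, 5 and 2 small and 2, 10 and 10 ungated cells in 2i, in the same order. In N2B27 they gave 6, 10 and 4 small and 3, 8 and 10 ungated cells. Single cells differed too, and a 2i small cell with a cyclone G1 score of 0.964 was in G2/M by Seurat. All ratios among cells in S rest on cyclone's phases. Of the members, 41 are among cyclone's 667 marker genes, so the phases are not independent of them. With both gates pooled, the median log2 ratio of members between G2/M and G1 cells was 1.87 in 2i (all genes 0.72). It was 1.55 in N2B27 (all genes 0.13), and over the 9 members outside the markers 2.34 and 1.07 in the 2 media. All 6 G1 cells of 2i were small, and 15 of its 16 G2/M cells were ungated. In N2B27 6 of 8 G1 cells were small and 15 of 18 G2/M cells ungated. These ratios therefore cannot be told apart from the comparison of gates. Within cells assigned to S, the median of members between gates was -1.02 in 2i (5 and 7 cells) and 0.088 in N2B27 (11 and 4 cells), or -0.66 and -0.11 relative to all genes. The part of phase in the difference between gates was not tested.

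Other genes of the cell cycle were counted from lists of the pathway, to be read against 27.7% of all genes that fell and 16.4% that rose in 2i, and 16.5% and 12.7% in N2B27. Of 42 other mitotic genes tested, 20 fell and 1 rose in 2i, and 6 fell and 2 rose in N2B27, the latter no more than the shares of all genes, with medians of -0.85 and -0.37. The mitotic cyclins had log2 ratios of -1.38 (Ccnb1), -1.58 (Ccnb2) and -2.03 (Ccna2) in 2i and of -0.88, -1.29 and -0.34 in N2B27. Of 14 core APC/C subunits, 2 fell and 3 rose in 2i, and 0 fell and 1 rose in N2B27. Of 24 genes of S phase, 7 fell and 3 rose in 2i, near or under the shares of all genes, and 1 fell and 2 rose in N2B27. Among 11 genes of DREAM, MuvB and FOXM1, 2 fell and 1 rose in each medium. Mybl2, which encodes B-MYB, fell in both (-1.09 and -1.05), and Foxm1 had low means, with ratios of -0.78 and -0.94.

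Between media, few members passed the threshold in ungated cells. Of 49 tested, 0 fell, where 9.55% of all genes did, and 3 rose in N2B27 over 2i, where 7.95% did, with a median of 0.075 (all genes -0.021). The 3 were Mki67 (2.79), Ncapd2 (1.37) and Nuf2 (1.36). Mki67 passed the limit on the mean only through N2B27, with means of 79.0 there and 10.6 in 2i. Of the 21 N2B27 ungated cells, 10 held no count of it, and its ratio is given as a value only. In small cells, 4 of 45 fell, where 17.9% of all genes did, and 15 rose, where 23.8% did, with a median of 0.76 (all genes 0.13). The 4 that fell were Cenpe (-3.30), Ndc80 (-1.61), Birc5 (-1.37) and Ttk (-1.30). For the first 3, a single cell each held 96.4%, 64.7% and 64.3% of the 2i small cells' counts. The 15 include Kif18b (4.62), Aurkb (2.01) and Plk1 (1.68). Kif18b was expressed in 2 of 12 small cells in 2i and 4 of 20 in N2B27, with medians of 0 in both. Its means were 4.10 and 124, and 1 N2B27 cell held 61.97% of the counts there. With spike-in factors the median was -1.52 (all genes -1.56). Kif18b, Aurkb and Plk1 then turned sign (-0.15, -1.21 and -0.098). These comparisons share their cells with the comparisons of gates, and the plates and lanes differ with the media.

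Per kilobase of exon, Cdc20 and Ube2c had the highest mean normalized counts of the members in ungated cells, 788 and 449 in 2i and 1275 and 573 in N2B27. In N2B27 small cells they stood at 301 for Ube2c and 297 for Cdc20. At the other end, Mki67 held 1.05 in 2i ungated cells and Espl1 2.04 in N2B27 ungated cells. Within a group, Spearman's correlation of each member with the mean of the other 49 had a median of 0.45, 0.41, 0.36 and 0.28 in the small and the ungated cells of 2i and then of N2B27, given as a description over cells that share depth and size factor. Among 2i ungated cells it was highest for Ube2c (0.84) and Cdk1 (0.82).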

How the data were processed

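Single cells were sequenced by Smart-seq2, and the authors deposited raw read counts per Ensembl gene in 2 tables, 1 a medium. Per the submitters' notes, reads were trimmed with Trim Galore 0.4.4, aligned with GSNAP to GRCm38 and counted with HTSeq, and the notes also name DESeq2. Without molecular identifiers these are reads, not molecules. 12 rows naming no gene held 18.8% to 30.0% of the counts of kept cells and 92 spike-in rows 0.0514% to 29.9%, and both stayed out of totals.

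Cells more than 3 median absolute deviations from their plate were left out (scater 1.30.1 in R 4.3.3), that is under 307960 counts, 4435 genes or over 5.16% mitochondrial counts in 2i, and 1250614, 5316 and 4.67% in N2B27. Counts were divided by DESeq2 1.42.0 size factors, from 1227 genes present in all 75 kept cells. Means were compared with pseudocount 1 and a minimum mean of 20. Phases came from cyclone (scran 1.30.0), with Seurat 5.3.0 as an alternative. Other steps used Python 3.11.15, numpy 2.4.6, scipy 1.17.1, pandas 2.3.3 and matplotlib 3.10.9. With 1 sample a group no test was run.

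Members and lists were chosen with earlier results of these data known. Named in full were 16 members picked by role and the 4 lowest and 4 highest ratios in each medium. The limits of 10 normalized counts, 75% of pairs and 25 percentage points and the promoter windows were chosen after values had been seen. Alternatives covered scaling, cell filters, summaries, pseudocount, mean, thinning, single cells, phase and threshold.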

Additional observations from a re-analysis of the deposited data

Results flagged for a closer look

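Of the 50 members, 14 had log2 ratios of opposite sign in the 2 media, and the difference between media was not tested. In 2i and N2B27 these were Birc5 0.31 and -1.06, Cdc25b -0.57 and 1.52, Cdc25c -2.79 and 0.53, Ckap2 -1.0 and 0.12, Ckap5 -0.17 and 1.63, Espl1 0.55 and -2.60, Hmmr 0.011 and -0.52. The others were Kif11 -1.09 and 0.67, Kif18a -0.14 and 1.18, Mki67 0.61 and -2.10, Ncapg -2.12 and 0.32, Ncaph -0.091 and 0.43, Ndc80 0.39 and -1.42 and Top2a 0.12 and -0.37. Of the 14, 12 reached a mean of 20 normalized counts in both media, 10 passed the threshold in 1 medium and 0 did in both. Of all genes reaching that mean, 62.0% had a ratio below 0 in 2i and 54.5% in N2B27. Their share with opposite signs was not counted, so 14 of 50 cannot be set against it. With the highest cell of each gene and group left out, 6 of the 14 had the same sign in both media and 8 did not. The 6 were Birc5 (-0.96 in 2i and -1.26 in N2B27), Hmmr (-1.55 and -1.20), Ndc80 (-0.84 and -1.98), Espl1 (-3.64 and -2.55), Top2a (-0.45 and -0.45) and Ckap2 (-1.61 and -0.27). The spike-in reads, which are no gene's, had a median share of 3.47% in small cells in 2i and 2.45% in N2B27, above the ungated cells.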

How the results depend on the processing

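No paired analysis was possible because each group is 1 sample. Results are log2 ratios or counts of members, to be set beside 29 that fell and 2 that rose (median -1.09) in 2i, 15 and 3 (-0.52) in N2B27, 4 and 15 (0.76) between media in small cells, and 0 and 3 (0.075) in ungated cells. The cause of the changes was not tested, except where cells, genes or the threshold were fewer or other by construction. Shares of all genes past the threshold follow in parentheses, unless the Results above give them. With poscounts size factors, between gates in 2i, 16 members fell, 8 rose, the median was -0.50 and turned ratios were Nusap1 0.21. With poscounts size factors, between gates in N2B27, 7 members fell, 6 rose and the median was 0.034. With poscounts size factors, between media in small cells, 23 members rose (31.6%) and the median was 1.08 (all genes 0.30). With poscounts size factors, between media in ungated cells, 7 members rose (16.7%) and the median was 0.51 (all genes 0.43). With spike-in size factors, between gates in 2i, 5 members fell, 8 rose, the median was 0.22 and turned ratios were Aurkb 0.24, Cdca8 0.41, Cdca2 0.030, Bub1 0.83, Bub3 0.91, Cdc25c 0.39, Cdk1 0.95, Nusap1 0.063, Cenpa 0.28, Kif11 9.04e-05, Nuf2 1.24, Spc24 0.51, Ube2c 0.65, Ube2s 0.13, Ncapd2 0.30, Ncapg 0.030, Ckap2 0.58. With spike-in size factors, between gates in N2B27, 32 members fell, 0 rose, the median was -1.31 and turned ratios were Ckap5 -0.040. With spike-in size factors, between media in small cells, 36 members fell (70.8%), 1 rose (3.58%) and the median was -1.52 (all genes -1.56). Turned ratios were Plk1 -0.098, Aurkb -1.21, Bub1 -1.47, Cdc25c -1.24, Tpx2 -0.40, Cenpa -2.07 and Cenpf -1.81. Others that turned were Kif11 -0.84, Kif18b -0.15, Nuf2 -1.69, Ncapd2 -0.026, Ncapg -0.68 and Ckap2 -1.20. With spike-in size factors, between media in ungated cells, 1 member fell (11.4%). With scran size factors, between gates in 2i, 18 members fell (22.9%). With scran size factors, between gates in N2B27, 8 members fell (14.8%) and the median was -0.28 (all genes 0.084). With pooled counts, between gates in 2i, 18 members fell (20.5%). With pooled counts, between media in small cells, 2 members fell (11.6%). With means of log2 values, between gates in 2i, 46 members fell (61.4%), 0 rose (3.70%) and the median was -2.76 (all genes -1.41). Turned ratios were Cenpe -2.07 and Smc2 -0.51. With means of log2 values, between gates in N2B27, 37 members fell (42.6%), 0 rose (4.62%) and the median was -1.66 (all genes -0.77). The turned ratio was Kif18a -1.12. With means of log2 values, between media in ungated cells, 15 members fell (37.4%), 1 rose (3.05%) and the median was -0.57 (all genes -0.63). With the highest cell of each gene and group left out, between gates in 2i, 0 members rose (4.845%). There the median was -1.62 (all genes -0.86) and the turned ratio was Cenpe -1.04. With the highest cell of each gene and group left out, between media in small cells, 2 members fell (11.5%). The turned ratio there was Cenpe 0.52. With the highest cell of each gene and group left out, between media in ungated cells, 2 members fell (14.8%). Over the members outside cyclone's markers, between gates in 2i, 5 members fell, 0 rose and the median was -1.72. Over the members outside cyclone's markers, between gates in N2B27, 3 members fell and 1 rose. Over the members outside cyclone's markers, between media in small cells, 0 members fell, 4 rose and the median was 1.15. Over the members outside cyclone's markers, between media in ungated cells, 0 members rose and the median was 0.24. Without the 2i small cell with most spike-in, between gates in 2i, 1 member rose (11.9%) and turned ratios were Cenpe -1.15. Without the 2i small cell with most spike-in, between media in small cells, turned ratios were Cenpe 1.34. Among cells assigned to S, between gates in 2i, 1 member rose (9.75%). Turned ratios were Plk1 0.40, Aurkb 0.023, Nusap1 1.16, Cenpe -0.74, Ube2c 0.39, Smc2 -0.28 and Arhgef39 0.84. Among cells assigned to S, between gates in N2B27, 11 members rose (29.2%) and the median was 0.088 (all genes 0.20). Turned ratios were Fzr1 1.82, Nek2 0.86, Ndc80 0.69 and Dlgap5 0.22. Among cells assigned to S, between media in small cells, 2 members fell (13.1%). Turned ratios were Birc5 0.44, Ttk 0.33, Cenpe 0.98 and Ndc80 1.09. Among cells assigned to S, between media in ungated cells, 12 members fell (29.2%) and 13 rose (13.1%). Without both 2i small cells that stood apart, chosen after seeing the data, between gates in 2i, 1 member rose and turned ratios were Cenpe -1.30. Without both 2i small cells that stood apart, chosen after seeing the data, between media in small cells, turned ratios were Birc5 0.19, Cenpe 1.49. With no cells left out, between gates in 2i, turned ratios were Aurkb 0.62, Cenpe -2.23. With no cells left out, between media in small cells, turned ratios were Aurkb -0.73, Ckap2 -0.21. With no cells left out, between media in ungated cells, 5 members fell (14%). With fixed cell limits, between media in ungated cells, 3 members fell (10.6%). With a mean of at least 5, between media in small cells, 7 members fell (20.1%). With no filter on the mean, between media in small cells, 7 members fell (6.91%). With a threshold of 0.58, between media in small cells, 26 members rose (34.6%). With a threshold of 0.58, between media in ungated cells, 3 members fell (19.5%) and 6 rose (16.9%). The ratio of the shares of counts in N2B27 was 0.972 over the members outside the markers and 0.887 with no cells left out, against 0.777. Seurat gene scores, whose G2/M list holds 30 of the members, put 47.6% of N2B27 ungated cells in G2/M, against 71.4%, and 45.5% of 2i ungated cells, against 68.2%. Of the values of single members past the threshold between gates, over all settings, 364 in 2i and 247 in N2B27 stayed past it, 100 and 35 kept their sign but did not, and 32 and 6 turned sign. Reads of 12 to 22 cells a group limit the ratios of sparse genes, many of which rest on a few cells.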
